A study of Mus musculus with 2 samples.

Results

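Lgr5 and 9 genes that act around it in the Wnt pathway were described in sorted cells of the mouse stomach. The genes were the receptors Lgr5 and Lgr4, the ubiquitin ligases Rnf43 and Znrf3, the feedback inhibitors Nkd1, Axin2 and Notum, the transcription factor Sp5, the receptor Tnfrsf19, and Ctnnb1, which encodes beta-catenin. They were taken by the gene name given for each probe in the array files, and all 10 were present, with 18 probes of the 41174 gene probes and 10 genes of the 27725 gene names. Lgr5 and Lgr4 were represented by 2 and 4 probes, Rnf43 and Tnfrsf19 by 2 each, Ctnnb1 by 3 and the others by 1 each.

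The cells came from the pylorus, the outlet of the stomach, of mice with the Lgr5-EGFP-ires-CreERT2 knock-in. In them the green fluorescent protein (GFP) and an inducible Cre recombinase are made from the Lgr5 locus, so GFP brightness reports on that locus only. Pyloric tissue of 20 mice was pooled, and cells with high GFP (GFPhigh) and with low GFP (GFPlow) were sorted from the same animals. Both populations carried the knock-in allele and both were GFP-positive, so neither is a population without Lgr5 reporter activity. The labels give no treatment, age or sex and do not say whether 1 or both alleles were targeted. RNA of the populations was hybridised on 2 Agilent arrays with dyes exchanged, so that GFPhigh carried Cy3 on array 1 and Cy5 on array 2.

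With 1 pooled RNA sample per population, the 2 arrays are repeat measurements and no test between the populations was possible. The SD over the 2 arrays holds technical error only, and the number of arrays limits the precision. Values are log2 ratios of GFPhigh over GFPlow, so a positive value is higher in GFPhigh.

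Wnt ligands bind Frizzled and Lrp receptors and thereby stop the breakdown of beta-catenin, which enters the nucleus and turns on genes together with Tcf/Lef factors. R-spondins bind Lgr4, Lgr5 and Lgr6 and so remove Rnf43 and Znrf3, ligases that clear Frizzled from the cell surface. Many genes switched on in this way encode brakes on the same pathway: Rnf43 and Znrf3 act on Frizzled, Nkd1 on Dishevelled, Axin2 in the beta-catenin destruction complex, and Notum on the Wnt lipid. Lgr5 is itself induced by Wnt in the gut and marks stem cells of the intestine and of the base of pyloric glands.

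Each probe is a 60-base sequence, and a value for a gene rests on where its probe lies. The first 30 bases are shown, 5' to 3', for the probes of the 5 genes that were higher in GFPhigh, for the second probes of 3 of these genes, which were not well above background, and for Axin2. The coordinates are those of mm9, the build named by the file headers. No gene annotation of that build was used here, so exon, intron or UTR is not stated.
Lgr5 (chr10:114888847-114888906, minus strand): aaacaccgcttgtatcatttgttcagctaa
Lgr5, second probe (chr10:114900686-114900745, minus strand): acctctagtgcttatatagaaacttgtgtg
Nkd1 (chr8:91116159-91116218, plus strand): ccactaatatttagccagccttcatgtaga
Sp5 (chr2:70315688-70315747, plus strand): cagagctacagcatggtacgtttctgtaaa
Rnf43 (chr11:87548944-87549003, plus strand): atgggtatttatatctgaaccagacagaaa
Rnf43, second probe (chr11:87543959-87544018, plus strand): tgttgcttctaaatctaatttgtttgcaaa
Tnfrsf19 (chr14:61582948-61583007, minus strand): aagccaggacaagatggaggagacaaggac
Tnfrsf19, second probe (chr14:61593290-61593349, minus strand): tgagacctaagacctaaagagcatcaacag
Axin2 (chr11:108811980-108812039, plus strand): ttctactttagactgtaaattatgcattat
In the intensity data the first-listed probes of Lgr5, Rnf43 and Tnfrsf19 were well above background and the second probes were not. The probe starts of these pairs lie 11839, 4985 and 10342 bases apart. Each second probe is listed under another sequence record than the first. Whether the probes of a pair read the same transcript was not tested. The Axin2 probe had the lowest GC content of the 18, at 25.0%, and the second Rnf43 probe followed at 26.7%. The measured probes ranged from 35.0% to 45.0%, and the Notum probe, at 55%, had the highest value. The part of GC content in the signals was not tested.

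Background was read from 153 negative control spots per array. Their median intensity was 108 for GFPhigh and 170.5 for GFPlow on array 1, and 172 for GFPhigh and 112 for GFPlow on array 2, the higher value belonging to Cy5 each time. Well above background were 28.6% of gene spots in GFPhigh and 25.1% in GFPlow on array 1, and 18.7% and 31.7% on array 2. A gene was called measured when, on both arrays, the scanner software set its stricter flag (well above background) for the brighter population, which held for 7829 genes. Over these genes, which are not independent replicates, the median log2 ratio was -0.06, the SD was 0.57, and the median SD between the arrays was 0.27. All 5 epithelial markers (Epcam, Cdh1, Krt8, Krt18 and Krt19) were measured, and of the pyloric markers Gast, Sst, Muc6 and Muc5ac were measured and Pdx1 was not. Of other cell types, 1 of 6 fibroblast markers (Col1a2, 0.60 ± 0.75), 1 of 4 smooth muscle markers (Acta2, -0.55 ± 0.16), 0 of 4 endothelial and 0 of 6 blood cell markers were measured. The unmeasured markers of these other cell types were well above background in 0 channels, and by the looser flag 1 endothelial and 1 blood cell marker were over background in all 4.

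Of the 10 genes, 7 were measured and Znrf3, Axin2 and Notum were not. Lgr5, Nkd1, Sp5, Rnf43 and Tnfrsf19 passed 2-fold towards GFPhigh on each array, 0 were higher in GFPlow, and Lgr4 and Ctnnb1 stayed under 2-fold. The same rule was met towards GFPhigh by 138 of all 7829 measured genes (1.76%) and towards GFPlow by 211 (2.7%). The sort was made on Lgr5 reporter brightness, which sets the direction for Lgr5, and without it 4 of 6 measured genes were higher in GFPhigh. Tnfrsf19 and Lgr4 passed the detection rule with 1 population short of the stricter flag on 1 array, though positive and significant over background there, and among the 5 genes with both populations well above background on both arrays 4 were higher in GFPhigh. The median of the 7 genes was 1.33, or 1.24 without Lgr5, against -0.06 for all measured genes. The genes were chosen with results of these arrays known, so these counts are a description and not independent evidence. In RNA from sorted bulk cells, fewer cells of a type and less RNA per cell cannot be told apart.

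These counts depend on how each array was centred. Centring each array on its median in place of the intensity-dependent loess curve left 0 of the 7 genes past 2-fold on both arrays, and centring on the spike-in controls left 2, Lgr5 and Nkd1. Both settings moved the whole distribution: the median of all measured genes became -0.49 with median centring and -0.81 with spike-in centring, and 4.44% of the genes past 2-fold lay towards GFPhigh with median centring, against 39.5% with loess. Measured from the median gene of each array, a quantity added after the data were seen, each of the 5 genes was at least 1.17 higher on each array with median centring, reaching 2.47 on array 1 and 2.25 on array 2. Spike-in centring subtracts 1 constant per array (0.60 on array 1 and 0.97 on array 2) from the loess ratios, so it leaves the order of the genes on an array as it was and says nothing more about their place. The size of the GFPhigh to GFPlow ratio was not fixed by these data.

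**Figure D1:**
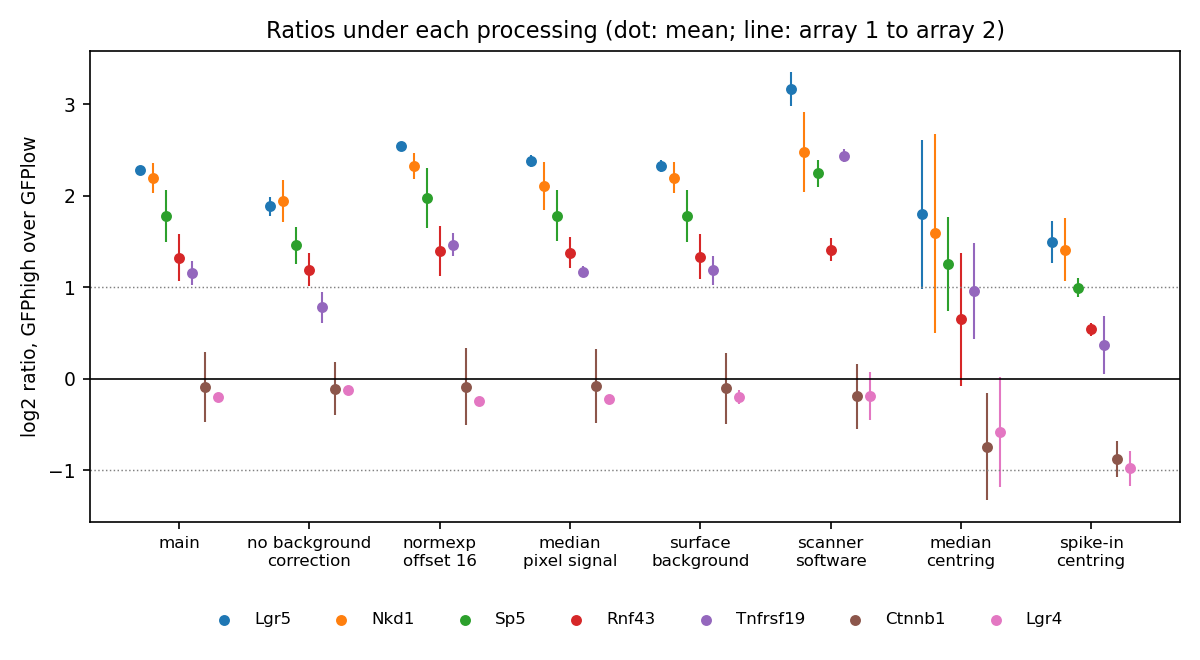
Log2 ratio of GFPhigh over GFPlow (vertical axis) for the 7 measured genes under 8 ways of processing the arrays (horizontal axis); dots are means of the 2 arrays and lines join the 2 arrays. Lgr5 was lowest with spike-in centring (1.497) and highest with the scanner software's signals (3.17), and under median centring the 2 arrays lay far apart, at 2.61 and 0.98 for Lgr5.

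Lgr5, the R-spondin receptor whose locus drives GFP, gave intensities of 1077 in GFPhigh and 259 in GFPlow on array 1, and of 528 in GFPhigh and 279 in GFPlow on array 2. These were 9.996, 1.52, 3.07 and 2.49 times the negative control median of the same channel. GFPhigh was the brighter population on both arrays, and GFPlow was well above background on both arrays too, so the low population had measurable Lgr5 RNA. The log2 ratios of arrays 1 and 2 were 2.33 and 2.24, or 2.28 ± 0.06 (SD, n = 2 arrays) and 4.86-fold. Lgr5 ranked 12th of all measured genes from the GFPhigh end. The second Lgr5 probe read 101.1, 169, 176 and 107 in the same channel order, between 0.938 and 1.02 times the negative controls, and was well above background in 0 channels. The value for Lgr5 therefore rests on 1 of its 2 probes.

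Lgr4, a second R-spondin receptor that is broadly expressed in epithelia, did not differ by 2-fold. Its brightest probe, at chr2:109854007-109854066, gave intensities of 239.7 in GFPhigh and 295 in GFPlow on array 1, and of 232 and 378 on array 2. GFPhigh was well above background on array 1 only. The log2 ratios of arrays 1 and 2 were -0.18 and -0.21, a mean of -0.19 ± 0.02, so the arrays lay close together and both were just under 0. A further measured Lgr4 probe, at chr2:109852832-109852891, differed in sign between the arrays, with 0.26 on array 1 and -0.94 on array 2 (-0.34 ± 0.85). The direction of the brightest probe was not the same on both arrays under every processing: it was -0.45 and 0.08 with the scanner software's processed signals and 0.02 and -1.18 with median centring. The other 2 Lgr4 probes were well above background in 0 channels, and one of them, at chr2:109829910-109831296, covers 1387 bases of genome with its 60 bases and so crosses a gap. The pair of R-spondin receptors measured here thus had ratios of 2.28 and -0.19, while Lgr6 was well above background in 0 channels.

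**Figure D2:**
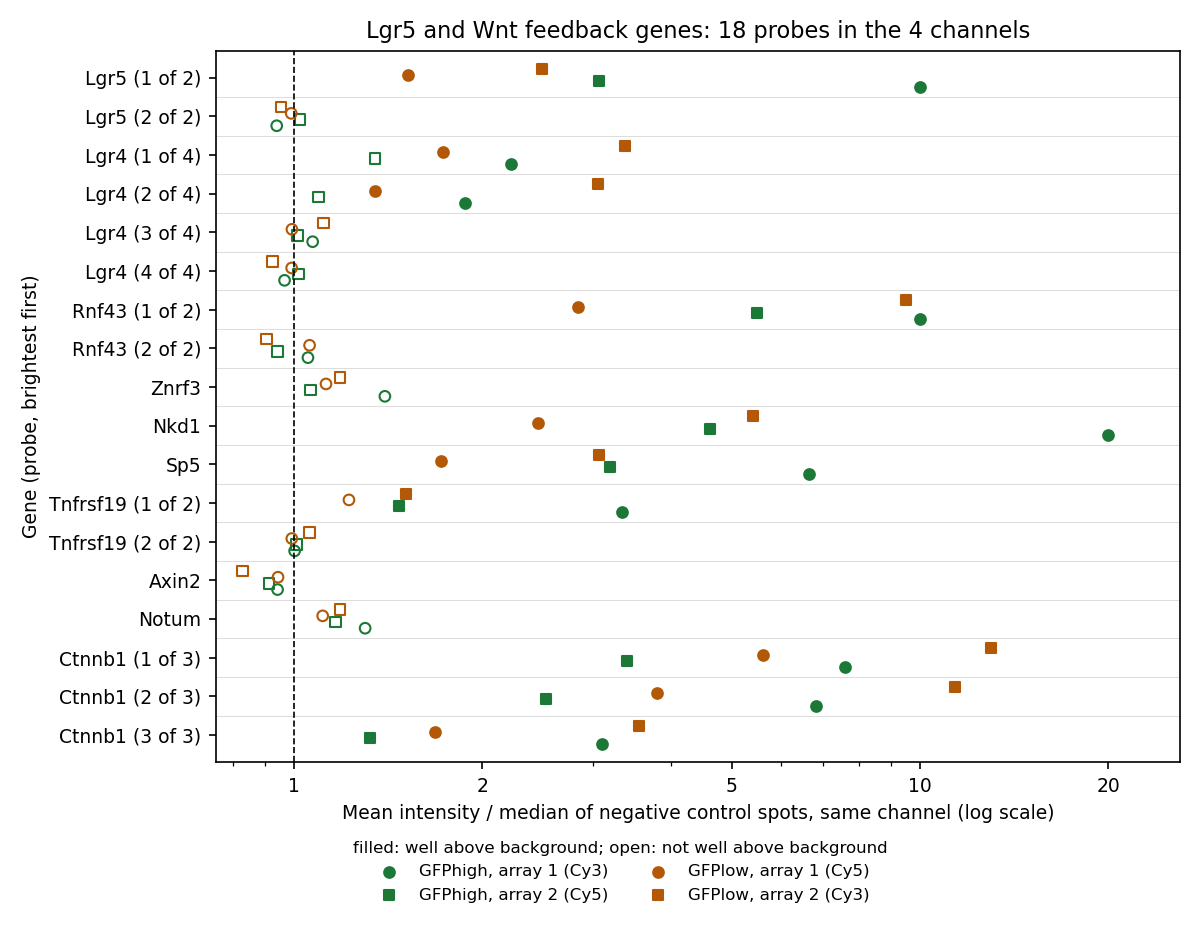
Mean intensity of each of the 18 probes divided by the median of the 153 negative control spots in the same channel (horizontal axis, log scale), with 1 line per probe and 4 points for the 2 populations on 2 arrays; filled points were well above background and open points were not. The Lgr5 probe reached 9.996 in GFPhigh on array 1. The Axin2 probe lay below the dashed line that marks the negative control median. The Znrf3 (1.06 to 1.40) and Notum (1.11 to 1.30) probes lay above this line, with open points in all 4 channels.

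Rnf43, a membrane ubiquitin ligase that removes Frizzled receptors, gave intensities of 1078 in GFPhigh and 484 in GFPlow on array 1, and of 946 in GFPhigh and 1061 in GFPlow on array 2. As scanned, GFPhigh was therefore the dimmer channel on array 2, where the median measured probe was also far lower in GFPhigh. After loess the log2 ratios of arrays 1 and 2 were 1.07 and 1.58, a mean of 1.33 ± 0.36 and 2.51-fold. This was the 118th highest ratio, and the array 1 value lay close to the 2-fold line. The second Rnf43 probe was well above background in 0 channels.

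Znrf3, the partner ligase with the same target, was not measured. Its probe, at chr11:5176747-5176806, read 151 in GFPhigh and 192 in GFPlow on array 1, and 183 and 132 on array 2, or 1.06 to 1.40 times the negative controls. The scanner software's looser flag, positive and significant over background, was set in all 4 channels, and its stricter flag in 0. The ratio without the filter on dim probes was 0.18 on array 1 and -0.10 on array 2. At this signal a difference in Znrf3 between the populations was not detectable, and Znrf3 cannot be set beside Rnf43.

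Nkd1, which binds Dishevelled and dampens Wnt signalling, had a ratio close to that of Lgr5 with the main processing. Its intensities were 2152 in GFPhigh and 419 in GFPlow on array 1, and 794 and 605 on array 2. All 4 channels were well above background, from 2.46 to 20.0 times the negative controls. The log2 ratios of arrays 1 and 2 were 2.36 and 2.03, a mean of 2.20 ± 0.23 and 4.59-fold. Nkd1 ranked 16th from the GFPhigh end, and its ratio was not ordered the same way against Lgr5 on the 2 arrays, with differences of -0.03 and 0.20 (Lgr5 minus Nkd1). The closeness depended on the processing. With the scanner software's processed signals the means were 3.17 for Lgr5 and 2.48 for Nkd1, and on array 2 the ratios were 3.35 and 2.05. Without background correction the means were 1.88 for Lgr5 and 1.95 for Nkd1.

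Axin2, a scaffold of the beta-catenin destruction complex and a much used readout of Wnt activity, was not well above background on these arrays. Its probe read 101.4 in GFPhigh and 161 in GFPlow on array 1, and 157 and 92.6 on array 2. All 4 values were below the negative control median of their channel, at 0.828 to 0.943 times that median, and neither detection flag was set in any channel. Notum, an enzyme that inactivates Wnt ligands by removing their lipid, read 139.98 and 189 on array 1 and 200.4 and 133 on array 2, or 1.11 to 1.30 times the negative controls. For Notum, at chr11:120515521-120515580, the looser flag was set in all 4 channels and the stricter flag in 0. Without the filter on dim probes the ratios were 0.15 and 0.08 for Axin2 and 0.21 and 0.32 for Notum. Axin2 could not be told from background, and Notum was significant over it but not well above it, so neither gene is shown to be alike in the 2 populations.

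Sp5, a zinc-finger transcription factor that is a direct Wnt target in several tissues, gave intensities of 716 in GFPhigh and 293 in GFPlow on array 1, and of 549 and 343 on array 2. All 4 channels were well above background. The log2 ratios of arrays 1 and 2 were 1.49 and 2.07, a mean of 1.78 ± 0.41 and 3.43-fold, the 39th highest ratio. On each array Sp5 was higher than Rnf43, by 0.42 and 0.49.

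Tnfrsf19, a TNF receptor family member also called Troy that is enriched in Lgr5-positive stem cells of the intestine, was well above background in 3 of 4 channels. Its intensities were 359.9 in GFPhigh and 209 in GFPlow on array 1, and 253 and 169 on array 2. GFPlow was 1.22 times the negative controls on array 1 and not well above background there. The log2 ratios of arrays 1 and 2 were 1.29 and 1.02, a mean of 1.16 ± 0.19 and 2.23-fold, the 170th highest. Without background correction the ratios were 0.95 and 0.61, under 2-fold, and with the scanner software's own processing the mean was 2.44. Its size is the least settled of the 5 genes.

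**Figure D3:**
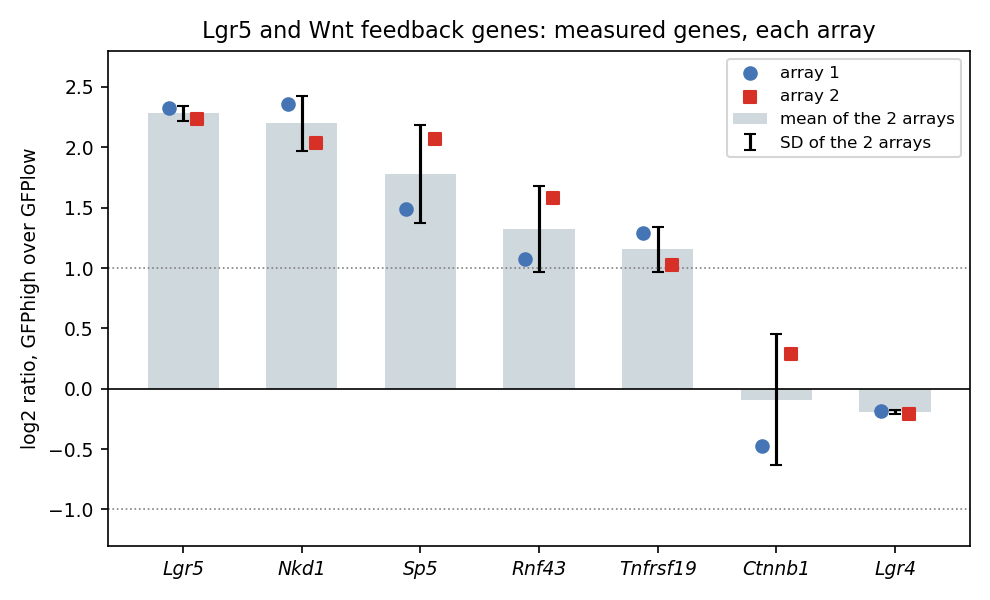
Log2 ratio of GFPhigh over GFPlow (vertical axis) for the 7 measured genes; points are the 2 arrays, bars their mean, and error bars the SD of the 2 arrays, with dotted lines at 2-fold. Lgr5 (2.28) and Nkd1 (2.20) are highest, and Ctnnb1 (-0.09) and Lgr4 (-0.19) lie near 0.

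In order of their ratios the measured genes were Lgr5, Nkd1, Sp5, Rnf43, Tnfrsf19, Ctnnb1 and Lgr4. Of neighbours in this order, Sp5 over Rnf43 and Tnfrsf19 over Ctnnb1 held on both arrays. The order of Lgr5 and Nkd1, of Nkd1 and Sp5 (differences of 0.87 and -0.03), of Rnf43 and Tnfrsf19 (-0.22 and 0.56) and of Ctnnb1 and Lgr4 (-0.29 and 0.50) was not the same on the 2 arrays. With this processing, these neighbours therefore do not differ beyond the array spread. The order changed with other processing. With the scanner software's processed signals Lgr5 was above Nkd1 on both arrays, at 2.98 and 3.35 against 2.91 and 2.05. Tnfrsf19 was then above Rnf43 on both arrays, at 2.37 and 2.51 against 1.54 and 1.28. It was also above Rnf43 on both with median centring, at 1.48 and 0.44 against 1.38 and -0.07.

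Ctnnb1, the signal carrier of the pathway, is regulated mainly through the stability of its protein, and its RNA did not differ by 2-fold with any of its 3 probes. The brightest probe, at chr9:120869274-120869333, gave intensities of 819 and 956 on array 1 and of 586 and 1454 on array 2, for GFPhigh and GFPlow. Its log2 ratios of arrays 1 and 2 were -0.47 and 0.29, a mean of -0.09 ± 0.54. The dimmest probe, at chr9:120865275-120865334, had the opposite order of arrays, with 0.47 on array 1 and -0.35 on array 2. The third probe, at chr9:120868778-120868837, is printed at 10 spots. On array 1, 8 of its spots were usable and ranged from -0.07 to 0.24, with a mean of 0.11 ± 0.09 (SD over spots). On array 2 all 10 were usable and ranged from -0.56 to 0.22, with a mean of -0.16 ± 0.29 and 6 spots below 0. The means over the arrays were -0.09 for the brightest, 0.06 for the dimmest and -0.02 for the repeated probe, each smaller than the SD of its 2 arrays (0.54, 0.58 and 0.19).

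The repeated probe gives a scale for the error of a single spot. Over 74 measured probes with at least 5 spots, the median SD between spots of a probe was 0.166 on array 1 and 0.269 on array 2. This spread is within an array and leaves out differences between arrays, whose SD over all measured genes was 0.57. Measured from 0, the ratios of Lgr5, Nkd1 and Sp5 on each array were many times the spread between spots. Those of Rnf43 and Tnfrsf19 were also larger than it. Measured from the 2-fold line, the Tnfrsf19 value on array 2 of 1.02 and the Rnf43 value on array 1 of 1.07 stood closer than this spread.

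**Figure D4:**
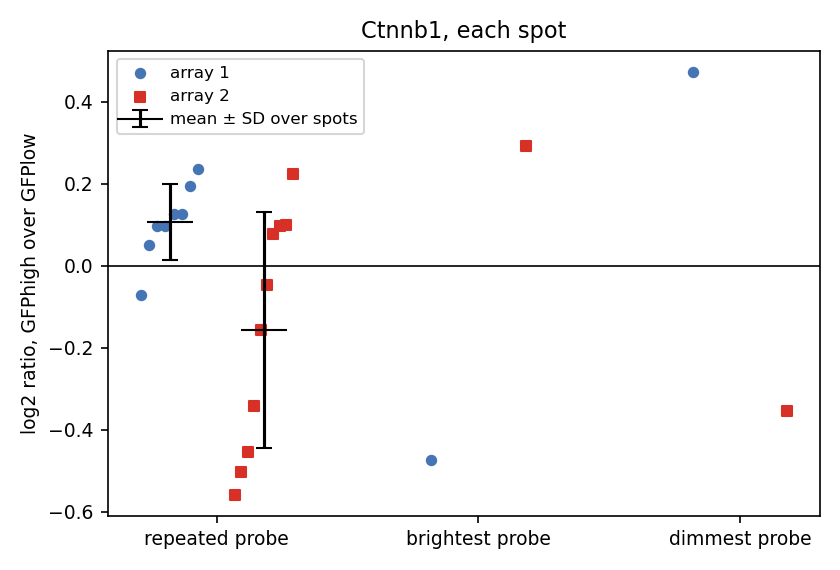
Log2 ratio of GFPhigh over GFPlow (vertical axis) for each usable Ctnnb1 spot, by probe (horizontal axis) and array; the crosses give the mean and SD over spots of the repeated probe. Its spots straddle 0 on array 2 (-0.56 to 0.22), and the brightest and dimmest probes have opposite orders of the arrays.

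The same genes were read from the scanned intensities with no normalization, after subtracting the negative control median of each channel. Over 9457 measured probes the median log2 ratio was then 0.31 on array 1 and -2.09 on array 2, so the arrays differed in scale, and values are read against these medians. Lgr5 was at 3.45 and 1.09, Nkd1 at 3.04 and 0.33, Tnfrsf19 at 2.72 and 0.50, Sp5 at 2.31 and 0.70, and Rnf43 at 1.63 and -0.29. By their mean of the arrays, 97.7% of probes lay below Rnf43 and 99.6% to 99.9% below each of the other 4. The Ctnnb1 and Lgr4 probes had means from -1.57 to -0.70, beside a median of -0.87 over all probes.

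**Figure D5:**
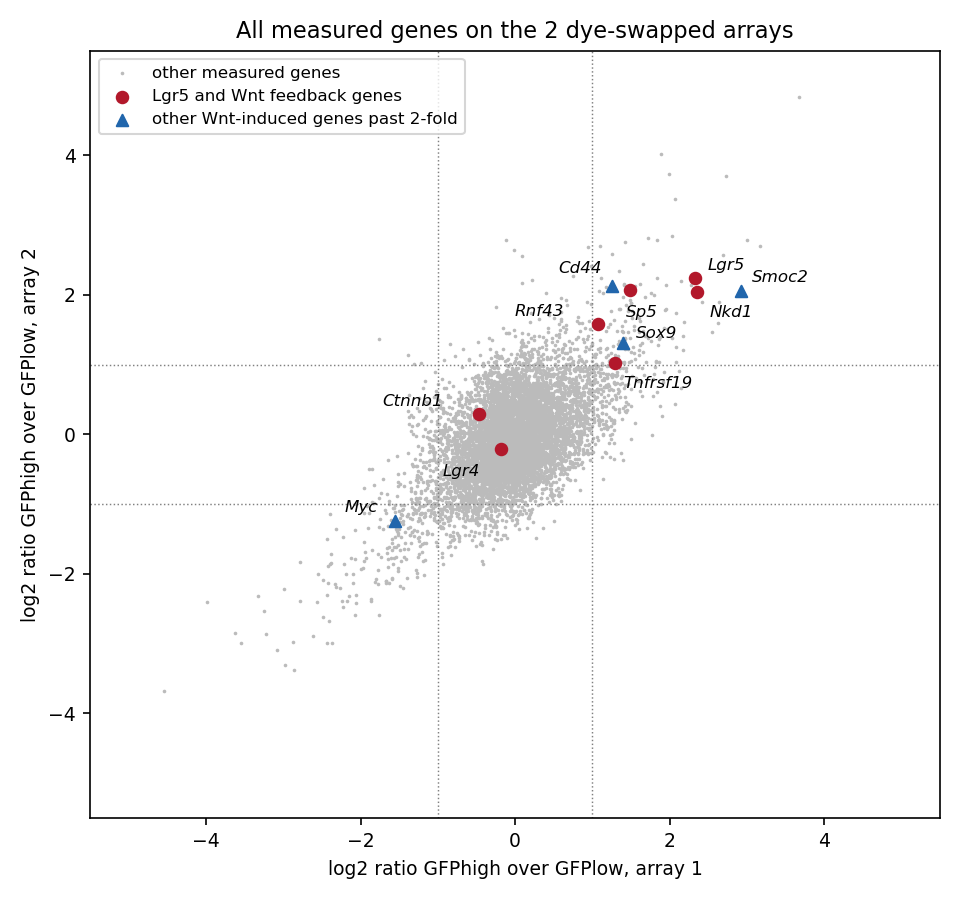
Log2 ratio of GFPhigh over GFPlow on array 1 (horizontal axis) against array 2 (vertical axis) for the 7829 measured genes; red points are Lgr5 and the Wnt feedback genes, blue triangles other Wnt-induced genes past 2-fold on both arrays, and dotted lines mark 2-fold. Lgr5 (2.33 and 2.24) and Nkd1 (2.36 and 2.03) lie side by side, and Myc (-1.56 and -1.24) lies in the opposite corner.

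The genes whose pair of ratios lay nearest to that of Lgr5 were found by Euclidean distance over the 2 arrays among the 7822 other measured genes, features known only by an identifier included in the distances and left out of those named. They were Furin, a proprotein convertase (distance 0.105, ratio 2.21 ± 0.09), Bex4 (0.180, 2.18 ± 0.04), Fndc5 (0.357, 2.16 ± 0.38), Ramp1 (0.379, 2.05 ± 0.13) and Sec14l4 (0.464, 2.27 ± 0.53). Nkd1 lay at a distance of 0.205, with 2 genes nearer. Sp5, Rnf43 and Tnfrsf19 had 26, 107 and 141 genes nearer to Lgr5 than themselves. With only 2 points per gene, this likeness is a description of size alone. The distances were taken with the main processing only, and the ratios of Lgr5 and Nkd1 lay further apart with the scanner software's processed signals.

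The rest of the pathway was read from 91 further genes sorted by role, all on the array. Of these, 21 were measured, 53 were well above background in 0 channels, and 43 were positive and significant over background (the looser flag) in all 4. By fold, 3 were at least 2-fold higher in GFPhigh and 1 in GFPlow, beside 1.76% and 2.7% of all measured genes. Their median was 0.28. The signals that start the pathway and their inhibitors did not meet the rule for measured genes: 0 of 19 Wnt ligands, 0 of 5 R-spondins and Lgr6, and 0 of 14 secreted or membrane inhibitors such as the Dkk and Sfrp families. By the looser flag, 4 of the ligands, 4 of the inhibitors and 0 of the R-spondins and Lgr6 were over background in all 4 channels. Wnt5b and Wnt6 were well above background in 2 channels each and Apcdd1 in 1.

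Of 15 receptor genes 5 were measured and 0 passed 2-fold on both arrays, with a median of 0.20. Fzd9, a Frizzled, came nearest at 1.36 on array 1 and 0.95 on array 2 (1.15 ± 0.29), with GFPlow well above background on 1 array. Its call turned on the processing: it passed with an offset of 16 and with the scanner software's processed signals, where its mean was 2.20. The tyrosine kinase-like receptor Ror2 was at 0.40 ± 0.42, the co-receptor Lrp5 at 0.20 ± 0.21 and Ryk at 0.08 ± 0.07. The list of cytoplasmic transduction and the destruction complex also holds Wls and Porcn, which serve Wnt secretion. Of its 15 genes 5 were measured and 0 passed 2-fold, with a median of 0.15. Ctnnbip1, which blocks the binding of beta-catenin to Tcf factors, was at -0.46 ± 0.14, and Dvl1 at 0.32 ± 0.44, the Wnt transporter Wls at 0.28 ± 0.77 and the kinase Csnk1a1 at -0.21 ± 0.25. The values of Ror2, Lrp5, Dvl1, Wls and Csnk1a1 were smaller than the SD of their 2 arrays. Averaged over its measured probes, Csnk1a1 changed sign, to 0.14.

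Of 12 nuclear factors 3 were measured and 0 passed 2-fold, with a median of 0.76. The Groucho co-repressors Tle2, at 0.99 on array 1 and 0.89 on array 2 (0.94 ± 0.07), and Tle1, at 0.76 ± 0.16, were higher in GFPhigh by less than 2-fold, and Pygo2 was at 0.06 ± 0.33. With spike-in centring Tle1 was at -0.02 and Tle2 at 0.15. The Tle2 call turned on the processing: it passed 2-fold with an offset of 16 and with the scanner software's processed signals, where its mean was 1.57. Tcf7l1 and Tcf7l2, which bind DNA for beta-catenin, were well above background in 3 channels each, and Tcf7 and Lef1 in 0.

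Of 12 other genes that Wnt induces in the gut, 8 were measured, with a median of 0.64. Smoc2, a secreted matrix protein of intestinal stem cells, was at 2.93 and 2.06 (2.49 ± 0.61), with GFPlow well above background on 1 array. The adhesion receptor Cd44 was at 1.26 and 2.13 (1.70 ± 0.62), and the transcription factor Sox9 at 1.40 and 1.31 (1.36 ± 0.06). These 3 were higher in GFPhigh. Myc, the growth regulator, was the 1 gene higher in GFPlow, at -1.56 and -1.24 (-1.40 ± 0.23, 2.63-fold), with GFPhigh well above background on 1 array. These values are those of the brightest measured probe. Averaged over the measured probes of each gene, the ratios were smaller, at -1.10 for Myc, 1.30 for Cd44 and 1.25 for Sox9, with the same calls. Ascl2 (0.50 ± 0.53), Ephb2 (0.18 ± 0.39), Ephb3 (0.77 ± 0.38) and the cyclin Ccnd1 (-0.02 ± 0.05) stayed under 2-fold. Of the rest, Rgmb was well above background in 2 channels and Tcf7, Prox1 and Cdx1 in 0. With median centring 0 of the 91 genes were past 2-fold towards GFPhigh, and with spike-in centring 1 was.

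Of the pyloric markers, Muc5ac, the mucin of surface cells, at -2.33 ± 0.37, and the hormone Sst, at -1.68 ± 0.03, passed 2-fold towards GFPlow on each array. Muc6, the mucin of the gland base, at 1.26 on array 1 and 0.86 on array 2, and the hormone Gast, at -0.49 and -1.25, were not 2-fold apart on both. Of the epithelial markers, the keratin Krt19 was higher in GFPlow on each array, at -2.24 ± 0.04, and Krt8, at -1.89 and -0.49, was not 2-fold apart on both. Epcam, at 0.12 ± 0.51, Cdh1, at -0.16 ± 0.11, and Krt18, at 0.08 ± 0.69, stayed near 0. Summed intensities above the negative controls are not normalized between channels, and on array 2 the median log2 ratio of probes was -2.09 before normalization, so they give no shares of cells. For the 5 epithelial markers the sum was 33392 to 71499.9 in GFPhigh and 103240.0 to 192865 in GFPlow, and for the 5 pyloric markers 516 to 1527 and 2651 to 7790.1. For the 6 fibroblast markers it was 211 to 243 and 163 to 264, and for the 4 smooth muscle markers 119 to 406 and 446 to 828, for GFPhigh and GFPlow. The part of these cell types in the ratios of Lgr5 and the Wnt genes was not tested.

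Since 5 of the genes had ratios in the same direction, their promoters were read for the core letters bound by Tcf/Lef factors. The 250 bases before each RefSeq start (assembly GRCm38.p6) were searched on both strands for the letters CTTTGAA, or CTTTGAT, or CTTTGTA, or CTTTGTT, and 14.8% of 32851 promoters held at least 1 match and 1.43% held 2 or more. A promoter was matched for 7 of the 10 genes, with 10 starts in all, and not for Lgr5, Znrf3 and Notum. Matches were found for Sp5 and for 1 of 2 starts of Tnfrsf19, and 0 in the windows of Nkd1, Rnf43, Axin2, Lgr4 and Ctnnb1. By start, 2 of the 10 held a match, beside 14.8% of all promoters. With so few starts, no difference from that share can be read. The Sp5 window held 2 matches, CTTTGTT on the minus strand 222 bases and CTTTGAT on the plus strand 104 bases before the start, which do not overlap. The Tnfrsf19 window held CTTTGAT on the minus strand, 202 bases before the start. Both windows are shown 5' to 3' on the strand of the gene, with the matches in capitals.
Sp5 (chr2:70474673-70474922, GRCm38.p6, plus strand): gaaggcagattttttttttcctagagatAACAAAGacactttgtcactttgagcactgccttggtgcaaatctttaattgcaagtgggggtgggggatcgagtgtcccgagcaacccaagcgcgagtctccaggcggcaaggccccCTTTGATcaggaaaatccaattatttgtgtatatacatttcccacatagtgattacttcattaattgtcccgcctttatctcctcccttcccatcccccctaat
Tnfrsf19 (chr14:61037988-61038237, GRCm38.p6, minus strand): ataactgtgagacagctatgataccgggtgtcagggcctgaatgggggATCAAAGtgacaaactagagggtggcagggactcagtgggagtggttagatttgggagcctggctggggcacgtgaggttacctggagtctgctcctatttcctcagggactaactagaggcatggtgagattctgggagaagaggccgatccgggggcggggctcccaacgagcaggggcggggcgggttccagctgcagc
A match says that the letters are present and not that a factor binds them, and a window without a match says nothing about sites elsewhere.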

How the data were processed

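Pooled RNA of 20 mice (150 ng labelled per sample, per the labels' protocols) was compared on 2 two-colour arrays of 45018 spots, 43379 of them gene spots. The authors deposited scanner output with the mean intensity and local background of each channel, and a log10 ratio of Cy5 over Cy3 from Feature Extraction, per the file headers; these name version 10.5.1.1, and the submitters' processing notes name 9.5.3. The deposited value table holds the same log10 ratios turned to GFPhigh over GFPlow, and where it is filled differs from them by no more than 0.0050. Its direction and scale were settled by this comparison. The table is empty at 22558 spots on array 1 and 24241 on array 2, all with a scanner ratio of 0.

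Mean intensities were corrected in limma 3.58.1 (R 4.3.3; normexp, offset 50) and normalized by loess within arrays, control spots at weight 0. The offset pulls ratios of dim probes towards 0. Non-uniform and outlier spots were left out, 0 gene spots were saturated, and spots of 1 probe entered as their mean. A gene took its measured probe with the highest average signal, and passed at 2-fold on each array in 1 direction. Symbols came from RefSeq (GRCm38.p6): 25263 probes matched by accession, 6233 by symbol and 1603 by an older symbol, and 8075 kept the name in the file. Only the normalization and the 2-fold rule were run on simulated data. Detection, the choice of probe, the naming and the choice of centring were not tested in that way.

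Members, lists and the spike-in alternative were chosen with earlier results of these data known. Named were each of the 10 genes with its probes, the genes past 2-fold of each Wnt list with up to 4 of the largest ratios, the 5 genes nearest to Lgr5, and the measured cell type markers. Ascl2, Ephb2, Ephb3 and Ccnd1, and unmeasured genes, were named outside this rule, after their values were seen. Of 17 alternatives, 1 (the background of the whole surface) and the values measured from the median gene were added after the data were seen. No batch was compared, since the arrays lie on 1 slide and come from 1 scan.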

Additional observations from a re-analysis of the deposited data

How the results depend on the processing

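The Lgr5 log2 ratio was 2.28 and stayed above 0 under all 17 alternatives. These are not 17 separate checks of it. The changed filters, keeping outlier spots and the mean of kept probes left it at 2.28, and the fold thresholds do not enter it. The value table repeats the scanner software's ratios. The Lgr5 ratio was 1.88 without background correction, 2.55 with a normexp offset of 16, 2.38 with median pixel signals, 3.17 with the scanner software's processed signals and with the value table, 1.80 with median centring and 1.497 with spike-in centring. The count of 5 genes at least 2-fold higher in GFPhigh was 0 with median centring and 2 with spike-in centring, and 4 without background correction and with both populations required well above background, where 5 genes were measured. It was 5 under the other alternatives, each array alone included, and 0 genes were higher in GFPlow under any. The genes measured numbered 9 with the looser flag and 10 without a filter.

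Of the other Wnt genes, 3 were higher in GFPhigh. This became 5 with offset 16, 5 with processed signals, 5 with the value table, 0 with median centring, 1 with spike-in centring, 6 at 1.5-fold and 3 to 5 on single arrays. The 1 gene higher in GFPlow, Myc, was lost without background correction (0) and with both populations required (0). Over all genes, 138 and 211 became 10 and 215 with median centring, 23 and 1322 with spike-in centring, 352 and 512 with processed signals, 352 and 508 with the value table, 438 and 587 at 1.5-fold, 249 and 317 at 2-fold in the mean, 125 and 139 with both populations well above background, and 371 and 497 or 347 and 397 on array 2 or array 1 alone. Why the centring moves the ratios was not tested. Signal over background limits what can be said of Znrf3, Axin2 and Notum. No paired analysis was possible because there is 1 RNA sample of each population; each ratio is already taken within an array.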
